A study of Homo sapiens with 10 samples.

Results

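SH-SY5Y cells with wild-type TDP-43 from a genome-editing experiment were compared with SH-SY5Y cells given control siRNA in a separate knockdown experiment. The comparison took 5 of the 10 libraries of the series. In the first group, labelled wild type, 2 libraries (79 and 80) came from cells with wild-type TDP-43 that served as the counterpart of cells homozygous for TDP-43 N352S. In the second group, siControl, 3 libraries came from cells given a control pool of small interfering RNAs (siRNA) at 50 nM for 96 hours, with a second dose at 24 hours, in a lipid reagent. All cells were grown in the same serum medium, per the labels. Neither group carries a TDP-43 mutation or a knockdown of it. The labels do not say whether the wild-type cells were 1 clone, whether they went through transfection, or when each experiment was done. Culture, transfection, line history and batch follow the same split as the groups and cannot be told apart. Genes with a mean of 1 TPM or more (RSEM's length-scaled share of transcripts) over these 5 libraries were tested, which took 17112 of the 58174 genes in the table. In both groups the mean reached 1 TPM for 16200 of them, and 479 passed with a siControl mean under 1 TPM and 433 with a wild-type mean under 1 TPM. Just outside the threshold, 378 genes had means of 0.9 to 1 TPM, and just inside, 300 genes had means of 1 to 1.1 TPM.

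SH-SY5Y is an established human neuroblastoma line of the noradrenergic, sympathoadrenal type, widely used as a neuron-like model. TDP-43, encoded by TARDBP, is a nuclear RNA-binding protein that regulates splicing and also limits its own transcript. Cultured cells respond to amino acid shortage and to misfolded protein in the endoplasmic reticulum through the transcription factor ATF4, whose translation rises when the initiation factor eIF2 is phosphorylated. ATF4 and its partners then raise genes for amino acid synthesis, transport and tRNA charging. Low oxygen acts through hypoxia-inducible factors on glucose uptake, glycolysis and mitophagy genes.

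TPM are scaled to 1 fixed total and hold no read counts, so sequencing depth is unknown. Between 16854 and 16977 genes reached 1 TPM in the siControl libraries and 17251 and 17382 in the wild-type libraries. Libraries correlated across genes at 0.976 to 0.983 within siControl, at 0.987 between the wild-type libraries and at 0.958 to 0.968 between the groups. The largest principal component of the 5 libraries, with 55.5% of the variance, separated the groups. The summed level of 7 noradrenergic neuroblast markers was 2999.3 to 3126.6 TPM in siControl and 3286.0 to 3344.2 TPM in wild-type libraries, although TH, the enzyme that opens catecholamine synthesis, averaged only 1.1 and 0.69 TPM. Summed markers of mesenchymal cells were at 149.7 to 181.8 and 140.1 to 149.1 TPM, and of fibroblasts at 118.4 to 127.2 and 90.8 to 109.5 TPM. TWIST1 made up most of the mesenchymal sum, at a mean of 148.29 TPM in siControl and 137.33 TPM in wild-type libraries. Each of the other mesenchymal markers averaged 6.19 TPM or less in both groups. Summed Schwann markers were at 6.2 to 7.4 TPM in siControl and 9.8 to 11.2 TPM in wild-type libraries, and epithelial markers at 1.8 to 1.9 and 3.6 to 3.8 TPM, both without overlap. Blood markers summed to 2.0 to 2.4 and 1.7 to 1.8 TPM and the 5 endothelial markers to 0.3 to 0.6 and 0.2 TPM. EGFL7, on the longer endothelial list, was at 26.4 to 28.1 TPM in siControl and 58.7 and 61.2 TPM in wild-type libraries. ESAM, the other tested member of that list, went the other way, at 1.84 to 2.04 TPM in siControl and 1.4 and 1.09 TPM in wild-type libraries. The part of other cell types in the results was not tested. FOXD3, CD3E, KRT5, KRT14 and CDH5 were listed at 0 in all 5 libraries. In bulk RNA, fewer cells of a type and less RNA per cell cannot be told apart.

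TARDBP (ENSG00000120948, chromosome 1, 11012344 to 11026420, plus strand, hg38) stood at 255.53, 255.57 and 256.30 TPM in siControl and at 195.53 and 205.39 TPM in wild-type libraries. Both wild-type values were under every siControl value. The wild-type mean of 200.5 ± 6.97 TPM (SD, n = 2) was 78.4% of the siControl mean of 255.8 ± 0.43 TPM (n = 3), a log2 difference of -0.35 ± 0.04 (SE; limma adjusted p = 0.000311) that shrank to -0.16 and kept its call when genes were centred by GC content. STMN2 (ENSG00000104435, chromosome 8, 79610814 to 79666175, plus strand), the axonal microtubule regulator known to need TDP-43 for its full-length transcript, was at 682.73, 724.89 and 842.61 TPM in siControl and 737.25 and 748.14 TPM in wild-type libraries. The groups overlapped, and the log2 difference of -0.01 ± 0.08 was not called (adjusted p = 0.943). Its sign changed with the scaling, as did its sign without siControl 3.

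Across the tested genes, 2546 were higher in wild-type cells (14.9%) and 4240 were lower (24.8%), together 39.7%, at a limma Benjamini-Hochberg adjusted p under 0.05. Counting only differences of 1 or more on the log2 scale, a doubling or halving of TPM + 1, left 380 higher genes (2.22%) and 120 lower genes (0.701%). The median log2 difference over all tested genes was -0.06. With each gene centred by the GC content of its transcript, 2743 genes were higher and 2891 lower. That centring brings the median of each GC bin near 0, so it cannot show whether the excess of lower calls is real. Median-of-ratios scaling gave 3016 higher and 3531 lower genes, and quantile normalization 2935 and 3670. Without wild-type library 79 the counts were 1688 and 2798, and without library 80 they were 1857 and 3084. Libraries did not overlap between groups for 4129 genes with wild type higher (24.1%) and 6267 with wild type lower (36.6%). The counts given for gene lists below are to be read beside these shares of all tested genes.

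**Figure D1:**
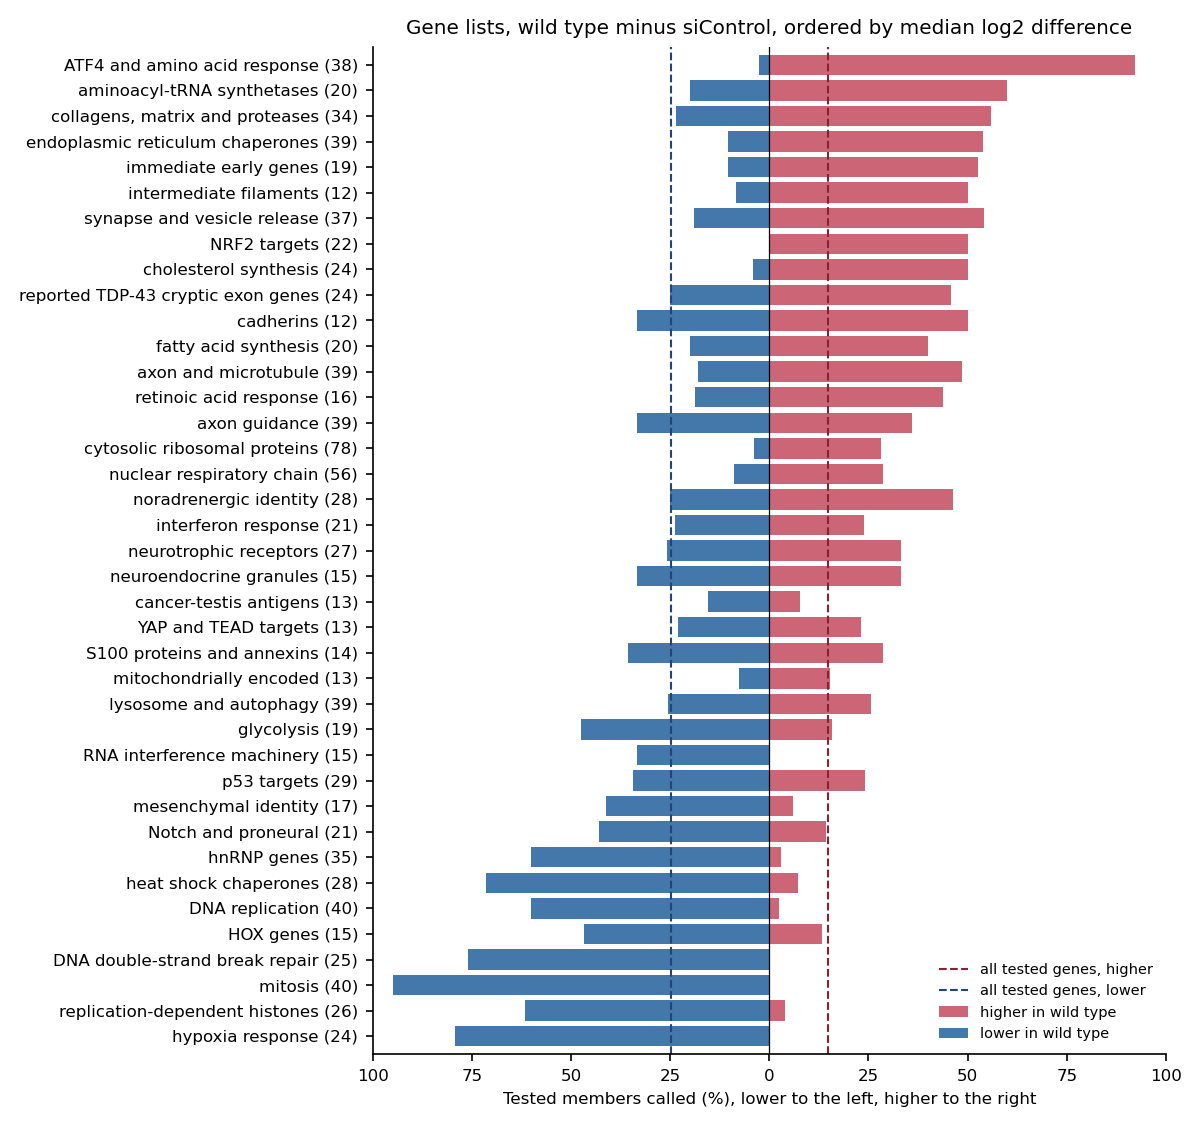
Share of each gene list's tested members that was called higher (right) or lower (left) in wild-type than in siControl libraries, in percent, for lists with at least 12 tested members. Dashed lines mark the shares over all tested genes, 14.9% higher and 24.8% lower. ATF4 and amino acid response genes reach 92.1% higher, and mitosis genes 95% lower.

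Genes of the ATF4 and amino acid response formed the group most uniformly higher in wild-type cells among the lists with at least 12 tested members. Of 38 tested members (2 others were under the threshold), 35 were higher, 1 was lower and 2 were not called, and 27 were higher by at least 2-fold. Their median log2 difference was 1.47, against -0.06 over all tested genes, and 1.37 after GC centring. The promoters of a pair of members are shown because they hold the response element that ATF4 is known to bind with C/EBP partners. The 250 bases before the RefSeq start (GRCh38.p14) are printed 5′ to 3′ on the gene's strand, with a match to TGATGNAA on either strand in capitals. CHAC1 lies at chr15:40953221-40953470, plus strand, and ASNS at chr7:97872409-97872658, minus strand.
CHAC1: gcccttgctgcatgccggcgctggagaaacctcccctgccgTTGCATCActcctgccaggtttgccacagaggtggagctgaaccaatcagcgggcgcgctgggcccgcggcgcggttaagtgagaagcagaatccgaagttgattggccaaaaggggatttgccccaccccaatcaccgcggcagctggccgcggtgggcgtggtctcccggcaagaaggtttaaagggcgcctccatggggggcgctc
ASNS: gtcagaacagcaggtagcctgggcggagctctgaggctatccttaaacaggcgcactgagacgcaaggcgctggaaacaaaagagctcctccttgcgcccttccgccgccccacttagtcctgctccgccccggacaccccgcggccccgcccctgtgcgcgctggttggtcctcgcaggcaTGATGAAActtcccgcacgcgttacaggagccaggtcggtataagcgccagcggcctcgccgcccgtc
The match in CHAC1 starts 209 bases before the listed start and that in ASNS 68 bases before it. ATF3 and MTHFD1L also hold a match, so 4 of the 30 members with a promoter in the reference do (13.3%), against 1.38% of 10840 promoters of tested genes and 3.19% of 27305 promoters in all. A match is a description of letters, not evidence of binding.

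CHAC1 (ENSG00000128965, chromosome 15, 40952962 to 40956519, plus strand) encodes a glutathione-degrading enzyme and is a well-known ATF4 target. It was at 4.05, 4.10 and 4.35 TPM in siControl and at 90.6 and 94.2 TPM in wild-type libraries. Every wild-type value was far above every siControl value, and the means differed 22.2-fold (log2 4.18 ± 0.09, SE; adjusted p = 3.12e-08). ASNS (ENSG00000070669, chromosome 7, 97852118 to 97872542, minus strand) makes asparagine. Its siControl values were 83.1, 81.5 and 83.8 TPM and its wild-type values 548 and 527 TPM, 6.49-fold apart (log2 2.68 ± 0.04; adjusted p = 3.92e-09), with no overlap. ATF4 itself was at 159, 160.2 and 159 TPM in siControl and 427 and 429.7 TPM in wild-type libraries, a 2.69-fold difference (log2 1.42 ± 0.03; adjusted p = 3.12e-08). Each siControl value of ATF4 was below both wild-type values.

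Members that act in serine synthesis and one-carbon metabolism are given first. PHGDH, the first enzyme of serine synthesis, averaged 88.5 ± 2.86 TPM in siControl and 361 ± 6.34 TPM in wild-type libraries (4.08-fold). PSAT1 and PSPH, the next enzymes of that route, were 2.1-fold and 1.88-fold higher. The mitochondrial one-carbon enzymes SHMT2 (51.2 to 181 TPM), MTHFD2 (99.1 to 337 TPM) and ALDH1L2 (2.19 to 18.3 TPM) were also higher in both wild-type libraries than in any siControl library. Of the amino acid carriers on the list, SLC38A2 was not called, and the following were higher. SLC7A11, the cystine importer, was at 0.44, 0.33 and 0.36 TPM in siControl and at 9.74 and 11.3 TPM in wild-type libraries, and SLC7A5 and SLC3A2, which pair to carry large neutral amino acids, were 4.59-fold and 3.56-fold higher. SLC6A9, a glycine transporter, was 6.12-fold higher. SLC7A11 passed the expression threshold through the wild-type libraries. Of the transcriptional regulators, DDIT3 (CHOP) averaged 14.3 ± 0.59 and 51.7 ± 1.77 TPM, ATF3 9.91 ± 1.01 and 32.2 ± 1.51 TPM, CEBPB 3.85 ± 0.56 and 13.3 ± 0.50 TPM, and TRIB3, which restrains the response, 15.8 ± 0.54 and 46.1 ± 0.67 TPM. SESN2, a sestrin that restrains the growth kinase mTORC1, was 5.33-fold higher. Members outside the rule for named genes, such as SHMT2 and DDIT3, were chosen after their values were seen. The exceptions to the higher calls were VEGFA, the angiogenic factor also raised by hypoxia, which was lower (124 ± 4.13 and 107 ± 3.78 TPM; log2 -0.21 ± 0.06, adjusted p = 0.0209), and ALDH18A1 and SLC38A2, which were not called (adjusted p = 0.122 and 0.341). The count of lower members fell to 0 without siControl 2, siControl 3 or either wild-type library, and under median-of-ratios scaling or quantile normalization.

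**Figure D2:**
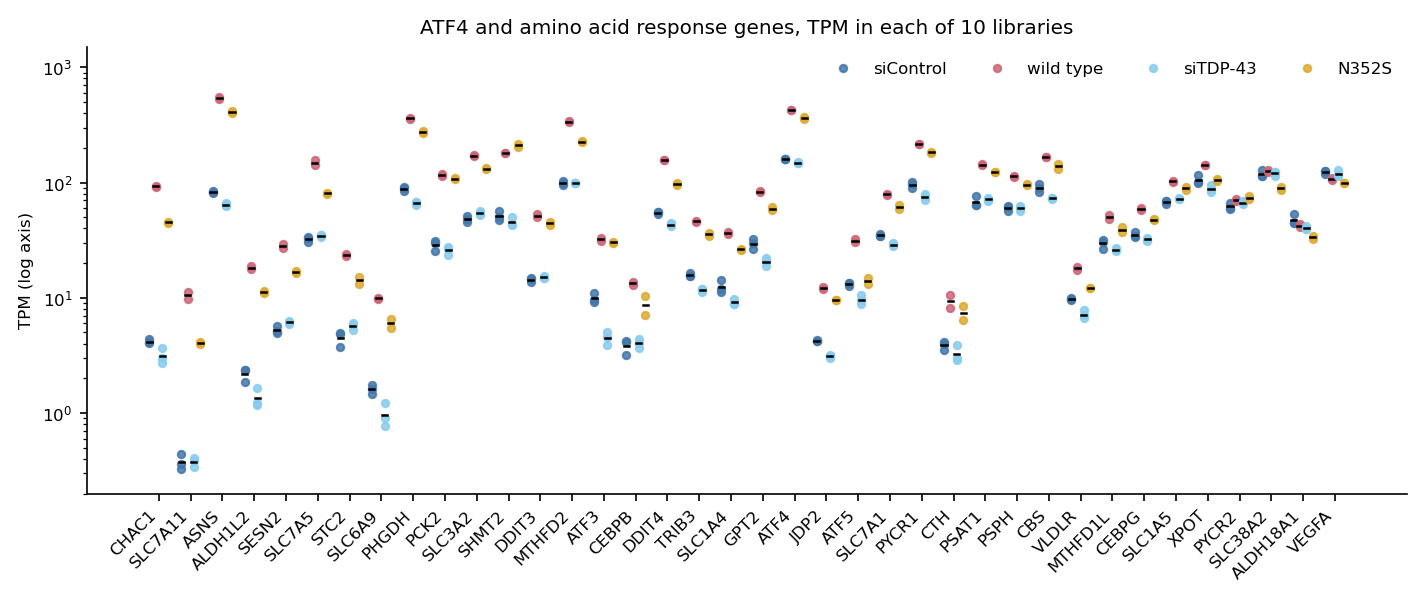
TPM (log axis) of the 38 tested ATF4 and amino acid response genes in each of the 10 libraries, 1 point a library, coloured by group, with bars at the group means. For CHAC1 the 2 wild-type libraries sit at 90.6 and 94.2 TPM and the 3 siControl libraries between 4.05 and 4.35 TPM.

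Aminoacyl-tRNA synthetases, which charge tRNAs with amino acids, were split. Of 20 cytosolic members, 12 were higher and 4 lower (median log2 0.36). SARS, for seryl-tRNA, had siControl values of 95.3, 97.8 and 105 TPM and wild-type values of 285 and 279.8 TPM, 2.84-fold apart with no overlap (adjusted p = 1.25e-07). YARS was 2.51-fold, GARS 2.48-fold, CARS 2.43-fold and WARS 2.26-fold higher, each with no overlap between groups. The lower members were DARS, RARS, HARS and FARSA, whose log2 differences were -0.32, -0.32, -0.13 and -0.10, chosen here because they are the whole of that count. Under median-of-ratios scaling, quantile normalization or GC centring, or without any 1 siControl library, 2 of the 20 were lower, and without wild-type library 80 1 was.

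Chaperones and folding enzymes of the endoplasmic reticulum were more often higher than lower, by smaller amounts. Of 39 tested members, 21 were higher and 4 lower (median log2 0.28, or 0.31 after GC centring, when 27 were higher and 1 lower). A pair of promoters is shown because they hold the endoplasmic reticulum stress element, in capitals (CCAAT and CCACG with a fixed spacer, either strand). HSPA5 lies at chr9:125241344-125241593, minus strand, and XBP1 at chr22:28800570-28800819, minus strand, on the same build and in the same orientation as above.
HSPA5: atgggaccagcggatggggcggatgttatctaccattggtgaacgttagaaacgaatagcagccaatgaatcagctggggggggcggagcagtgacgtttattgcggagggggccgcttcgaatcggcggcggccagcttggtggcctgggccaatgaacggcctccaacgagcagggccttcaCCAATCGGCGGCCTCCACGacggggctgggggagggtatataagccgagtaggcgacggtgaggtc
XBP1: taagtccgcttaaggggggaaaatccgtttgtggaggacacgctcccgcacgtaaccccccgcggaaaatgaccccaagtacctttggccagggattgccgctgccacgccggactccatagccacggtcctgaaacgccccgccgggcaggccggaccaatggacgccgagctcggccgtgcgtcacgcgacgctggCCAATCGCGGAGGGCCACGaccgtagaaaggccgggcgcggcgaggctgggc
The element starts 66 bases before the listed start in HSPA5 and 52 bases before it in XBP1. It is in 7 of the 36 members with a promoter in the reference (19.4%; the others are CALR, CANX, CRELD2, ERO1B and HSP90B1), against 0.12% of promoters of tested genes and 0.0806% of all promoters.

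HSPA5 (BiP, the main luminal chaperone) was at 168, 174 and 172 TPM in siControl and at 308 and 299 TPM in wild-type libraries. The groups stood apart, 1.77-fold (log2 0.82 ± 0.03; adjusted p = 1.04e-06). HERPUD1, which takes part in disposal of misfolded protein, averaged 45.4 ± 6.78 and 137 ± 5.84 TPM, and XBP1, a transcription factor of the stress response, 59.6 ± 3.71 and 149 ± 3.75 TPM. HYOU1 and PDIA4, a chaperone and a disulfide isomerase, were 1.81-fold and 1.4-fold higher. The sensors of the response did not share that direction. EIF2AK3 (PERK), a kinase that phosphorylates eIF2, was lower, at 25.51, 23.04 and 24.31 TPM in siControl against 13.54 and 13.70 TPM in wild-type libraries (log2 -0.79 ± 0.07; adjusted p = 7.97e-05), while ATF6 (16.6 and 17.0 TPM) and ERN1 (4.95 and 5.43 TPM) were not called. These 3 sensors were chosen after their values were seen.

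Hypoxia-response genes were lower in wild-type cells. Of 24 tested members, none was higher, 19 were lower (79.2%, against 24.8% of all tested genes) and 5 were not called. The libraries did not overlap for 22 members, all with wild type lower, which held for 36.6% of all tested genes. The median log2 difference of the list was -0.69, and -0.52 after GC centring, when 20 were lower. A pair of promoters is shown for the core hypoxia response element, ACGTGC on either strand, in capitals. EGLN1 lies at chr1:231422288-231422537, minus strand, and BNIP3 at chr10:131981924-131982173, minus strand. In BNIP3 a match on each strand overlaps the other.
EGLN1: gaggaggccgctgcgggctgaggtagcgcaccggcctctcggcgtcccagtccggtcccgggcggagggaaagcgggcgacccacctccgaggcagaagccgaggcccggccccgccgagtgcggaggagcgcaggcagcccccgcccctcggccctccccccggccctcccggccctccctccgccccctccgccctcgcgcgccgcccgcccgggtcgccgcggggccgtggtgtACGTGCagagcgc
BNIP3: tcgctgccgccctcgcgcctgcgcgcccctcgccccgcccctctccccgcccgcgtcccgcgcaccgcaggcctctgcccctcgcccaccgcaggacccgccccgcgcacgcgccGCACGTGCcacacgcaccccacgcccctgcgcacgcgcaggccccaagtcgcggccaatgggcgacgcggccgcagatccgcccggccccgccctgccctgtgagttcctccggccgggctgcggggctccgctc
The match in EGLN1 starts 13 bases before the listed start. The letters are in 9 of the 21 members with a promoter in the reference (42.9%), against 7.56% of promoters of tested genes and 5.85% of all promoters.

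EGLN1, an oxygen-sensing prolyl hydroxylase, was at 47.6, 42.1 and 44.6 TPM in siControl and at 22.7 and 22.0 TPM in wild-type libraries. Both wild-type values were near 49.9% of the siControl mean (log2 -0.97 ± 0.06; adjusted p = 1.21e-05). ANGPTL4, a secreted lipase inhibitor, had the largest difference of the list, from 7.53, 6.01 and 7.05 TPM to 0.88 and 1.57 TPM (17.8% of the siControl mean). SLC2A1, the glucose transporter GLUT1, averaged 79.3 ± 2.80 and 42.0 ± 0.25 TPM, PFKFB3, which sets the level of a glycolytic activator, 22.8 ± 1.96 and 9.74 ± 0.01 TPM, and P4HA1, a collagen prolyl hydroxylase, 37.7 ± 2.69 and 18.9 ± 1.02 TPM. The mitophagy receptors BNIP3L and BNIP3 were at 60.9% and 60.4% of siControl. PDK1, which holds pyruvate back from the mitochondrion, was at 42.0% of siControl, BNIP3 and PDK1 being chosen after their values were seen. Of 19 glycolysis genes, 9 were lower (47.4%) and 3 higher (15.8%, near the 14.9% of all tested genes), with a median log2 difference of -0.08. The higher count fell without wild-type library 79, and to 1 after GC centring. HK2 averaged 59.6 ± 2.66 and 33.6 ± 0.17 TPM, LDHA, which makes lactate, 1132 ± 131 and 709 ± 8.75 TPM, and ENO1 1181 ± 31.2 and 976 ± 12.1 TPM, whereas the lactate exporter SLC16A3 was 3.07-fold higher from a level of 2.20 TPM.

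Mitosis genes were lower in wild-type cells by smaller amounts and almost without exception. Of 40 members, 38 were lower and none was higher (median log2 -0.50). Their transcripts were AT-rich, with a median GC content of 42.6% against 48.2% over all tested genes, and after GC centring 34 were lower (median -0.40). CCNA2, the S and G2 phase cyclin, was at 79.2, 79.4 and 84.2 TPM in siControl and at 43.9 and 48.6 TPM in wild-type libraries, with no overlap (log2 -0.79 ± 0.05; adjusted p = 1.16e-05). CENPE, a kinetochore motor, averaged 28.0 ± 3.02 and 13.6 ± 0.01 TPM. TPX2, a spindle assembly factor, was at 70.6%, FOXM1, the transcription factor of G2 and M phase genes, at 67.8% and MKI67, the Ki-67 antigen, at 73.5% of siControl, MKI67 being chosen after its values were seen. The 2 members not called were PRC1 (223 ± 10.4 and 212 ± 1.74 TPM; adjusted p = 0.182) and CDC25B (66.7 ± 2.40 and 71.9 ± 5.84 TPM; adjusted p = 0.141).

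**Figure D3:**
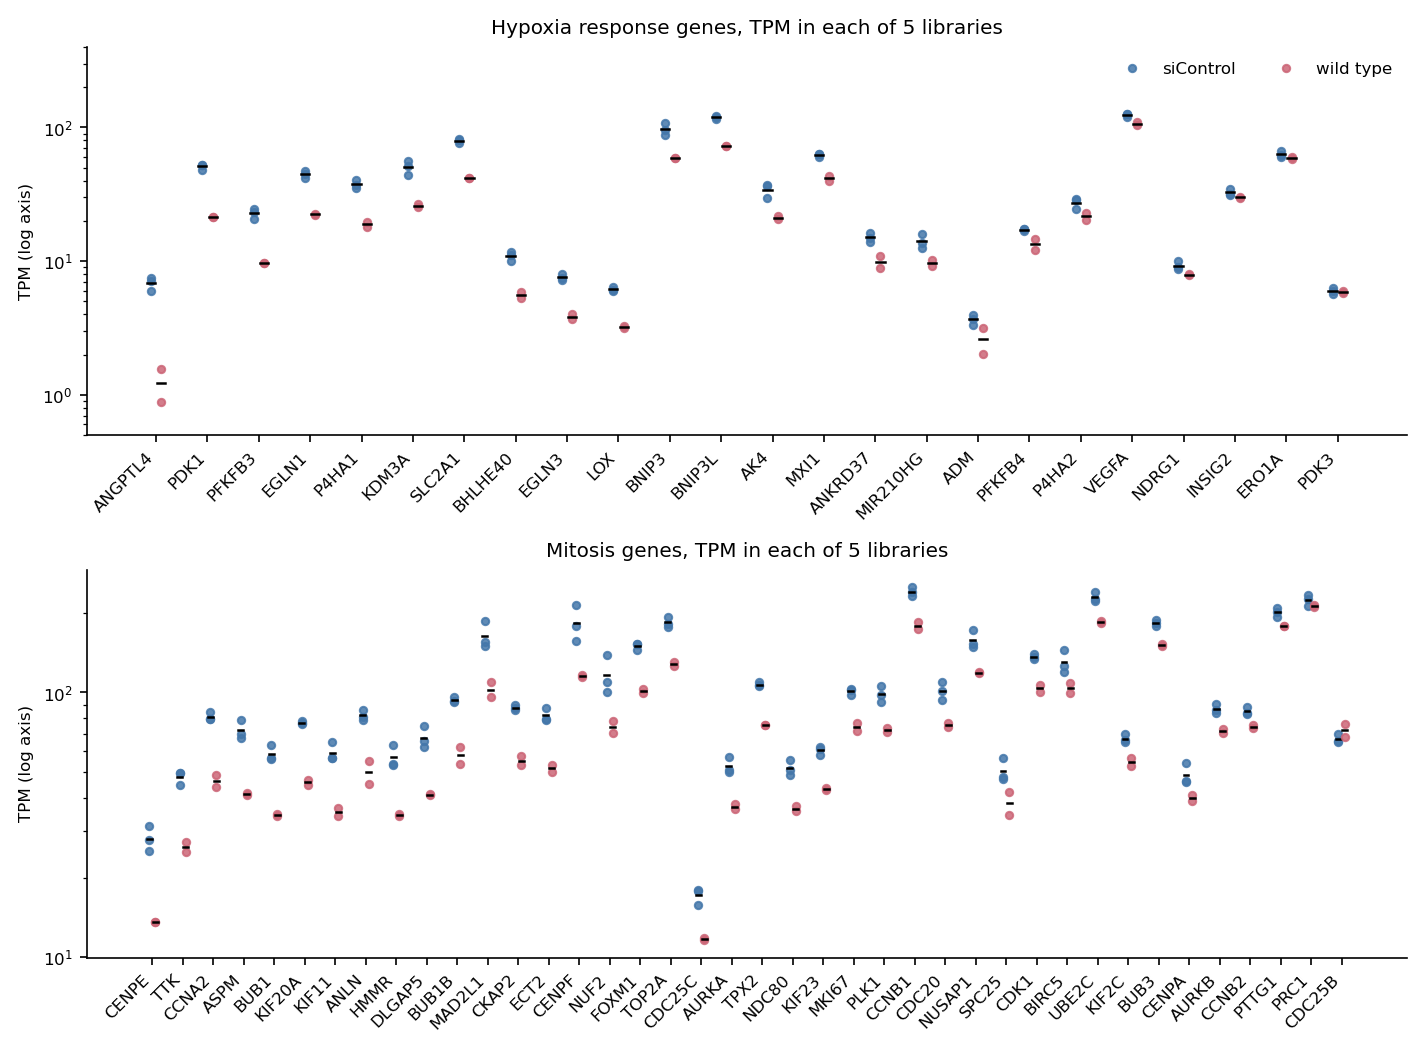
TPM (log axis) of each tested hypoxia response gene (top) and mitosis gene (bottom) in the 5 libraries, 1 point a library, with group means as bars and genes ordered by log2 difference. The wild-type points of EGLN1 sit at 22.7 and 22.0 TPM under siControl points of 42.1 to 47.6 TPM, and PRC1 and CDC25B at the right of the lower panel are the mitosis genes that were not called.

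Of 40 DNA replication genes, 24 were lower and 1 was higher (median log2 -0.24). TYMS, thymidylate synthase, averaged 336 ± 7.42 and 258 ± 0.88 TPM. GINS1, of the replicative helicase, and POLA1, the primase-polymerase subunit, were at 61.9% and 64.4% of siControl. None of 25 DNA double-strand break repair genes was higher and 19 were lower (median log2 -0.33), but their transcripts were also AT-rich (42.2% GC), and 13 were lower after GC centring (median -0.19). RAD50, part of the complex that senses breaks, was at 53.6, 53.5 and 51.7 TPM in siControl and 36.5 and 35.8 TPM in wild-type libraries. BRCA1 averaged 43.4 ± 2.70 and 29.7 ± 0.73 TPM (log2 -0.53, or -0.35 after GC centring). Of 26 tested replication-dependent histone genes (35 others were under the threshold), 16 were lower and 1 was higher (median log2 -0.57). HIST1H2BD averaged 18.4 ± 3.61 and 5.71 ± 0.31 TPM and HIST1H2AC 8.07 ± 0.86 and 2.36 ± 0.41 TPM. Replication-dependent histone messages lack poly(A) tails, and their reads can be shared between near-identical copies, so these levels are uncertain.

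Cytosolic and mitochondrial chaperones were lower as a group. Of 28 heat shock chaperone genes, 20 were lower and 2 were higher (median log2 -0.24, or -0.19 after GC centring, when 15 were lower). CHORDC1, an HSP90 cochaperone, was at 52.4, 55.3 and 60.2 TPM in siControl and at 25.4 and 23.7 TPM in wild-type libraries, 43.9% of the siControl mean (log2 -1.16 ± 0.06; adjusted p = 4.71e-06). HSPA8, the constitutive HSC70, averaged 1293 ± 11.5 and 912 ± 11.2 TPM, and AHSA1, an activator of HSP90, 289 ± 7.57 and 206 ± 7.07 TPM. HSPA1B, an inducible HSP70 whose reads can be shared with HSPA1A, averaged 56.1 ± 1.11 and 33.1 ± 2.02 TPM. The members that were higher were HSPA9, the mitochondrial HSP70 (1.19-fold), and HSF1, the regulator of the heat shock response (1.15-fold), both chosen because they are the whole of that count. Of 35 genes for heterogeneous nuclear ribonucleoproteins and related RNA-binding proteins, 21 were lower and 1 was higher (median log2 -0.22), with a median GC content of 42.1%. After GC centring 12 were lower and 4 higher (median -0.07), and HNRNPA3 and HNRNPD lost their calls, at log2 -0.02 and -0.01.

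Of 28 tested genes of noradrenergic identity, 13 were higher (46.4%, against 14.9% of all tested genes) and 7 lower (25%, against 24.8%), with a median log2 difference of 0.08. RET, the receptor for GDNF-family ligands, was at 200.4, 211 and 210.2 TPM in siControl and 429 and 417 TPM in wild-type libraries, 2.04-fold apart (adjusted p = 7.66e-07). GATA2, a transcription factor of sympathetic neurons, averaged 271 ± 10.9 and 387 ± 12.8 TPM. EYA1 and SATB1 were at 62.0% and 61.3% of siControl. Of the defining factors, PHOX2A (522 ± 25.9 and 528 ± 9.57 TPM; adjusted p = 0.827) and HAND2 (725 ± 66.7 and 650.4 ± 20.8 TPM; adjusted p = 0.103) were not called. DBH, which makes noradrenaline from dopamine, was 1.24-fold higher (1328 ± 30.5 and 1651 ± 50.5 TPM).

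Neuronal cytoskeleton and synapse genes leaned higher. Of 39 axon and microtubule genes, 19 were higher and 7 lower (median log2 0.13), and of 37 synapse and vesicle release genes, 20 were higher and 7 lower (median 0.24). KIF1A, the motor of synaptic vesicle precursors, was at 55.3, 55.3 and 48.4 TPM in siControl and at 142 and 137 TPM in wild-type libraries, with no overlap (2.64-fold). TUBB4A and TUBB3, neuronal tubulins, were 3.23-fold and 1.54-fold higher, and GAP43, of growth cones, 1.73-fold higher. NRXN2, a presynaptic adhesion protein, averaged 11.8 ± 1.47 and 40.7 ± 1.99 TPM, and CPLX2, which clamps vesicle fusion, 24.8 ± 0.34 and 59.4 ± 2.33 TPM. PCLO, an active zone scaffold encoded by a very long gene, was at 54.3% of siControl. Of 12 intermediate filament genes, 6 were higher, among them NEFM (30.2 ± 1.98 and 61.5 ± 4.65 TPM), and 1 was lower, VIM (473 ± 15.6 and 362 ± 1.36 TPM). After GC centring 6 of the 12 were higher and 3 lower.

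Neuropeptides differed strongly and not in 1 direction. Of 15 neuroendocrine granule genes, 5 were higher and 5 lower. NPY, the neuropeptide of sympathetic neurons, was at 209, 207 and 197 TPM in siControl and 469.8 and 476 TPM in wild-type libraries, 2.31-fold apart (adjusted p = 2.09e-07). VIP averaged 3.29 ± 0.27 and 9.60 ± 0.16 TPM. GAL, galanin, averaged 134 ± 5.37 and 67.8 ± 1.37 TPM, in the opposite direction with no overlap. The granule proteins CHGA and CHGB also parted, at 69.9% and 146.1% of siControl. Of 27 neurotrophic growth factor and receptor genes, 9 were higher (33.3%) and 7 lower (25.9%, near the 24.8% of all tested genes). IGF2, a growth factor made by the line itself, was at 1519, 1546 and 1259 TPM in siControl and at 622 and 592 TPM in wild-type libraries. HGF was at 35.0% and EGFR at 43.2% of siControl. Of 39 axon guidance genes, 14 were higher and 13 lower, with the guidance receptor ROBO2 at 60.1 ± 3.33 and 24.7 ± 0.79 TPM and the netrin receptor UNC5A at 2.96 ± 0.40 and 10.9 ± 0.28 TPM. NEUROG2, a proneural factor, was at 53.1% of siControl.

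Mesenchymal identity genes were few and mostly low. Of 17 tested (13 others were under the threshold), 7 were lower and 1 was higher (median log2 -0.17). YAP1 was at 5.81, 5.94 and 6.81 TPM in siControl and 1.51 and 1.66 TPM in wild-type libraries, and TBX18 averaged 10.1 ± 0.19 and 3.57 ± 0.33 TPM. The summed fibroblast markers given above were lower beside these genes, but not marker by marker, and their part in the result was not tested. COL3A1, LUM and PDGFRA averaged less in wild-type than in siControl libraries (13.24 and 28.67, 25.99 and 33.33, and 25.01 and 32.07 TPM), while DCN and COL1A1 averaged more (6.98 and 2.64, and 7.24 and 2.95 TPM). On the longer fibroblast list, 4 of 8 tested genes were higher and 3 lower, with 2 higher without wild-type library 80. The 1 mesenchymal gene called higher was lost without siControl 2, siControl 3 or wild-type library 80. Of 34 matrix genes and proteases, 19 were higher and 8 lower (median log2 0.30). After GC centring 13 were higher and 6 lower (median 0.20). COL4A2 and COL18A1, of basement membranes, were 2.17-fold and 2.28-fold higher, while COL3A1 and the protease inhibitor TIMP1 were at 46.2% and 51.3% of siControl.

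Genes of cholesterol synthesis and uptake leaned higher, 12 higher and 1 lower of 24 (median log2 0.19, or 0.24 after GC centring). INSIG1, the sterol-regulated brake of the pathway, was at 17.4, 18.1 and 16.9 TPM in siControl and 32.6 and 34.0 TPM in wild-type libraries. MVD, an enzyme of the mevalonate route, was 1.47-fold higher. SREBF1, a master regulator of fatty acid genes, averaged 71.6 ± 4.76 and 142 ± 0.30 TPM. Of 20 fatty acid synthesis genes, 8 were higher (40%) and 4 lower (20%), against 14.9% and 24.8% of all tested genes. Without siControl 3, 5 of the 20 were higher. AGPAT2 was 1.59-fold higher, while ELOVL6 and ELOVL1 were at 65.8% and 73.8% of siControl. Of 22 targets of the antioxidant factor NRF2, 11 were higher and none was lower (median log2 0.21). The largest difference was in SLC7A11, also on the ATF4 list. SLC7A11 is in that count but passed the expression threshold through the wild-type libraries. ME1, malic enzyme, averaged 11.6 ± 0.54 and 19.7 ± 0.61 TPM. The letters TGACNNNGC were in 4 of 16 promoters of that list (25%), against 12% of promoters of tested genes. Other elements were sought in other lists. The TEAD site GGAATG was in 0 of 8 promoters of YAP and TEAD targets (9.11% of promoters of tested genes). In 14 promoters of immediate early genes, the AP-1 site was in 0 (2.37%) and the serum response element in 1 (0.0369%). The metal response element was in 4 of 7 promoters of metallothionein and zinc transport genes (26.8%). Of 19 immediate early genes, 10 were higher and 2 lower (median log2 0.27), with 1 lower when library 79 or library 80 was left out. The median log2 difference of the immediate early genes was 0.16 after GC centring. MYC averaged 35.8 ± 1.29 and 57.2 ± 1.60 TPM and DUSP6, a phosphatase induced by ERK, 42.3 ± 3.81 and 74.2 ± 2.24 TPM. Of 16 retinoic acid response genes, 7 were higher and 3 lower. The retinol receptor STRA6 and the retinoid-binding CRABP1 were 2.33-fold and 2.08-fold higher, while RARB, a retinoic acid receptor, was at 55.5% of siControl.

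Some lists that report on translation, respiration and damage did not hold their counts without a single library. Of 78 cytosolic ribosomal protein genes, 22 were higher and 3 lower, and 8 were higher without wild-type library 80. Of 56 nuclear respiratory chain genes, 16 were higher and 5 lower, with 7 higher without library 80 and 9 without library 79. Among 29 p53 targets, 7 were higher and 10 lower, with 2 higher without library 80 and 5 lower without library 79. Lower calls of the respiratory chain genes numbered 3 without siControl 2 or 3 and 1 without library 79, and those of the ribosomal protein genes 1 without siControl 2 and 0 without library 79. The median log2 difference of the 13 mitochondrially encoded genes was -0.04 and turned to 0.14 after GC centring. Their largest gains in TPM were in MT-ND2 (4347 ± 374 and 5429 ± 303 TPM), whose call was lost without library 79, and MT-ND1 (2577 ± 283 and 3625 ± 236 TPM). MT-ATP8 had their largest called loss (7285 ± 326 and 6261 ± 22.2 TPM), and its call was lost without library 79, without library 80 and after GC centring.

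The highest of the named protein-coding genes by size of difference was CCL2, a chemokine that attracts monocytes (ENSG00000108691, chromosome 17, 34255218 to 34257203, plus strand). It was at 0.19, 0.30 and 0.14 TPM in siControl and at 44.9 and 51.0 TPM in wild-type libraries. It was near 0 in 1 group and well above it in the other, and passed the expression threshold through the wild-type libraries, so its difference is given as values with no test. The same holds for IL32, CDC42EP1, INHBE, FAM20C and SLC7A11, all under 1 TPM on average in siControl. IL32, a cytokine, averaged 0.34 ± 0.06 and 7.08 ± 0.42 TPM, and CDC42EP1, a CDC42 effector, 0.62 ± 0.10 and 11.7 ± 0.10 TPM. ADM2, INHBE and FAM129A (NIBAN1), which code for a peptide hormone, an inhibin subunit and a stress-related protein, averaged 1.44, 0.36 and 1.61 TPM in siControl and 14.5, 6.93 and 14.7 TPM in wild-type libraries. HR, a nuclear receptor corepressor, was 7.87-fold higher, and FAM20C, a secretory pathway kinase, was at 0.49, 0.45 and 1.36 TPM in siControl and 8.48 and 10.6 TPM in wild-type libraries.

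Among the lowest, AC005943.2 was at 12.2, 12.1 and 11.1 TPM in siControl and listed at 0 in both wild-type libraries. It overlaps MBD3 and UQCR11 on the same strand, so its reads may have been split with theirs. PHLDB2, a microtubule-anchoring protein, was at 24.0, 24.4 and 26.0 TPM in siControl and 3.85 and 4.44 TPM in wild-type libraries (log2 -2.33 ± 0.08; adjusted p = 3.51e-07). PDZRN3, LAYN and SMAD6, a ubiquitin ligase, a hyaluronan receptor and an inhibitor of BMP signalling, were at 22.7%, 20.3% and 23.9% of siControl. APLN, the ligand of the apelin receptor, was at 18.2%, ITPKB, an inositol phosphate kinase, at 28.3%, STX3, a membrane fusion protein, at 32.7%, KITLG, the KIT ligand, at 31.0% and TRIM29 at 32.8% of siControl.

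In absolute TPM, with the mitochondrially encoded genes set aside, the largest gains in wild-type libraries were in CALM2, a calmodulin gene (1936 ± 42.8 and 2981 ± 153 TPM), the ribosomal protein genes RPLP1 (1.31-fold) and RPS7 (1.38-fold), TUBA1A (2022 ± 98.6 and 2526 ± 17.7 TPM) and FTH1, ferritin heavy chain (1386 ± 8.73 and 1853 ± 21.3 TPM). RN7SL2, an RNA of the signal recognition particle, was at 208, 154 and 137 TPM in siControl and at 1003 and 290.1 TPM in wild-type libraries, a spread that left its log2 difference of 1.71 uncertain. It was 0.82 without library 79 and 2.61 without library 80, and its call was lost without library 79, siControl 2 or siControl 3, with robust eBayes settings and with no filter on low TPM. On the same terms, the largest losses were in GNAS, the stimulatory G protein (2938 ± 122 and 2077 ± 27.2 TPM), TPT1 (3135 ± 50.7 and 2371 ± 53.9 TPM), IGF2, RPS27, whose call was lost in 6 of 18 alternatives, CHGA (1646 ± 40.5 and 1151 ± 16.5 TPM) and RP11-328L11.1 (1297 ± 319 and 592 ± 105 TPM).

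The other 5 libraries of the series split by the same 2 experiments and share no library with this comparison. They are 2 libraries of N352S cells from the editing experiment and 3 of cells given siRNA against TDP-43 (siTDP-43), at the same dose and time. That pair also differs in genotype and in TDP-43 level, which cannot be told apart from the experiment within it. In it, 4235 of the same genes were higher in N352S cells (24.7%) and 4642 lower (27.1%), together 51.9%. Of the 2546 genes higher in wild type than siControl, 1858 (73.0%) were also higher in N352S than siTDP-43 and 120 (4.7%) were lower. Of the 4240 lower genes, 2660 (62.7%) were also lower and 314 (7.4%) were higher. The shared calls made up 43.9% of the other pair's higher genes and 57.3% of its lower genes. Over the 17112 genes, the log2 differences of both pairs correlated at r = 0.6 (Spearman rho 0.58), a description across genes, which are not independent replicates. Among differences of at least 2-fold, 296 of the 380 higher genes were also higher in the other pair and 78 of the 120 lower genes also lower.

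**Figure D4:**
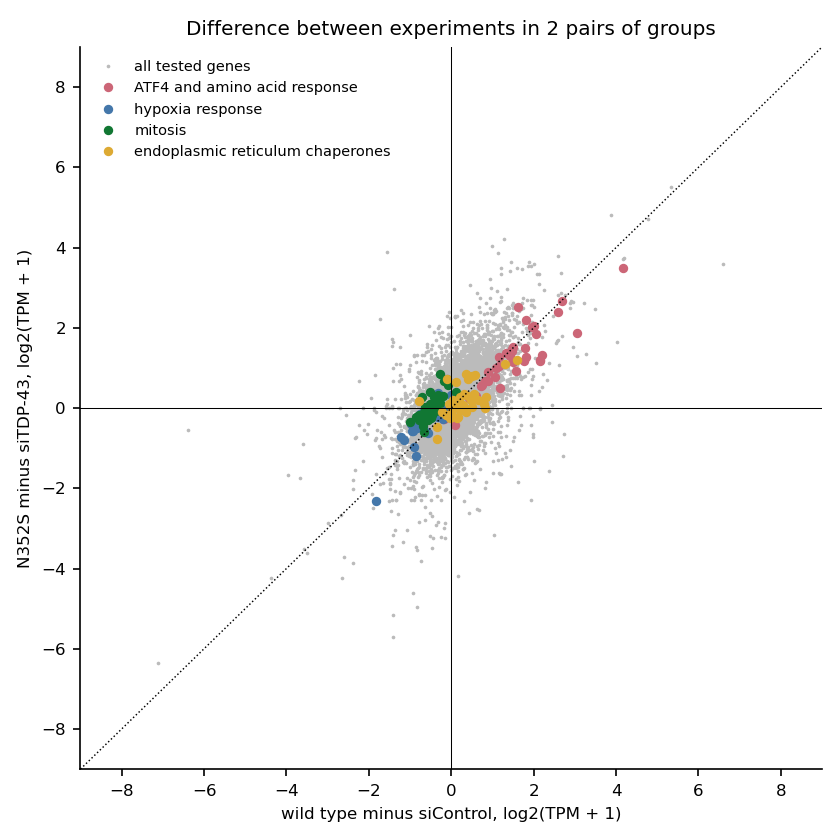
log2(TPM + 1) difference of wild type minus siControl (horizontal) against N352S minus siTDP-43 (vertical), 1 point a tested gene in grey, with members of 4 lists in colour and a dotted line where both differences are equal. ATF4 and amino acid response genes lie mostly in the upper right, and mitosis genes other than CDC25B lie left of the vertical zero line, on both sides of the horizontal one.

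The groups differed in how far they were shared between the pairs. Of all 17112 tested genes, 1858 were higher in both pairs and 2660 lower in both, and the counts below are to be read beside these. Of the 38 ATF4 and amino acid response genes, 34 were higher in both pairs (median log2 1.47 and 1.19), and the difference between the pairs was called for 14. ASNS differed by 2.68 and 2.66 and PHGDH by 2.02 and 2.03, while SLC7A5 (2.16 and 1.2; adjusted p of the difference = 8.48e-05) differed more in the first pair. HSPA5 was higher in wild type than siControl and not called in the other pair (0.82 and 0.01; adjusted p of the difference = 1.19e-05). Mitosis genes were lower in the first pair (38 of 40). In the second pair 10 of the 40 were higher and 13 lower (median -0.08). Those counts are near the shares of all tested genes in that pair, 24.7% higher and 27.1% lower. The difference between the pairs was called for 34 of the 40 mitosis genes. MKI67 was at -0.44 and 0.00 (adjusted p of the difference = 0.000943). Hypoxia genes were lower in both for 13 of 24 (median -0.69 and -0.29), and heat shock chaperones for 17 of 28 (median -0.24 and -0.31). NPY and RET were higher in both, by more in the second pair (1.21 and 3.35 for NPY; adjusted p of the difference = 1.37e-07), and HGF was lower in both (-1.42 and -5.16). NEUROG2 and EGFR were lower in the first pair and higher in the second (-0.90 and 1.33, and -1.11 and 0.25). Over all tested genes the difference between the pairs was called for 21.8%.

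The size and sign of the differences varied with the base composition of the transcripts, and also with transcript length and genomic span. In 5 equal bins of tested genes by transcript GC content (17049 genes, 99.6%, had a value), the median log2 difference went from -0.23 in the lowest bin (23.1% to 40.9% GC) through -0.15, -0.05 and 0.03 to 0.13 in the highest (57.9% to 86.4% GC). In the lowest bin 4.22% of genes were higher and 44.8% lower, and in the highest 32% and 9.65%. Library 79 stood at -0.25 and 0.14 and library 80 at -0.21 and 0.11 in the lowest and highest bins, against -0.04 to 0.06 and -0.02 to 0.01 for the siControl libraries. The other pair showed medians of -0.16 and 0.15 in these bins. From the shortest to the longest of 5 equal bins by transcript length, the median went from 0.04 to -0.15. In those 2 bins 9.55% and 37.5% of genes were lower, and 10.1% and 13.8% higher. By genomic span the median went from 0.02 to -0.13, with 10.7% and 34.7% lower and 9.82% and 14% higher. The separate parts of base composition, length and span were not tested. The part of base composition in any single gene's difference was not tested beyond the centring. After centring, the log2 differences of CKAP2, DNAJA1, TPT1 and LIG4 were -0.40, -0.31, -0.26 and -0.21 in place of -0.65, -0.49, -0.40 and -0.48, and that of MSMO1 was 0.71 in place of 0.46. All 5 kept their calls.

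**Figure D5:**
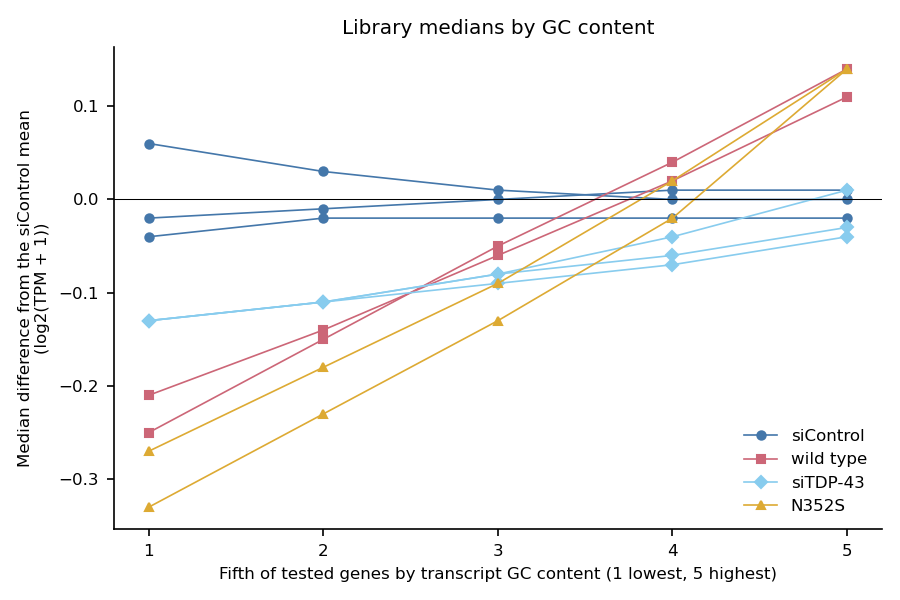
Median log2 difference from the siControl mean (log2(TPM + 1), vertical) in each of 5 equal bins of genes by transcript GC content (horizontal), 1 line a library of the 10. The wild-type libraries run from -0.25 and -0.21 in the lowest bin to 0.14 and 0.11 in the highest, and the siControl libraries stay between -0.04 and 0.06.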

How the data were processed

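Per the submitters' processing notes, the authors ran STAR and RSEM on hg38 and deposited TPM per gene. For versions and annotation, nothing is given in the sources used here. Lysates in Trizol gave the RNA and an Illumina TruSeq kit the libraries, per the labels' protocols, which name no separate cultures, so p-values measure the spread between libraries. TPM hold no depth and give no counting interval. Without stated strand information, overlapping antisense genes may not be separated.

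Values were fitted as log2(TPM + 1), which understates changes of low genes, in limma 3.58.1 under R 4.3.3 with a trended prior. The model had 4 group means over 10 libraries and 6 residual degrees of freedom. Calls needed a Benjamini-Hochberg adjusted p under 0.05 over all 17112 genes. The fit was tested on simulated data. Values after ± are SDs over libraries, or SEs after log2 differences, and folds and percentages of siControl are ratios of mean TPM. GENCODE 29 holds 57836 of 58174 identifiers (99.4%) and gave positions and GC content. RefSeq (GRCh38.p14) gave promoters, matched by symbol.

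The members and 45 gene lists were chosen with earlier results of these data known. The rule for names took TARDBP, STMN2, the 12 largest log2 differences in each direction (called, coding, 5 TPM or more in a group, no overlap), the 6 largest gains and losses in TPM among called genes (mitochondrially encoded genes aside), and up to 5 members per list by adjusted p, with defining members that missed the threshold. Equal numbers in the siRNA titles paired those libraries, whose deviations correlated at 0.33, 0.15 and 0.2. Alternatives changed the pseudocount, filter, scaling, libraries, eBayes settings, block and threshold. GC-bin centring (20 bins) was chosen after seeing the data. Figures used matplotlib 3.10.9.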

Additional observations from a re-analysis of the deposited data

Results flagged for a closer look

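STX3, which encodes a membrane fusion protein of the syntaxin family, was picked out because its effect differed in direction between the pairs of groups. It was at 46.4, 52.0 and 54.6 TPM in siControl and at 16.1 and 17.3 TPM in wild-type libraries (log2 -1.55 ± 0.08). Between N352S and siTDP-43 libraries its log2 difference was 0.22 (adjusted p = 0.0429), and the difference between the contrasts was -1.77 (limma adjusted p = 1.54e-05). TARDBP was picked out on the same ground. Its log2 difference was -0.35 between wild type and siControl and 0.92 between N352S and siTDP-43, where the siRNA pool was directed at it, so the contrasts differed by -1.27 (limma adjusted p = 3.74e-06).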

How the results depend on the processing

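The siControl and wild-type libraries stand for 2 experiments, with 3 and 2 libraries, and depth is unknown. Wild type minus siControl gave 2546 higher and 4240 lower genes. Leaving out 1 library at a time gave 1688 to 2374 higher and 2798 to 4061 lower genes. At an adjusted p under 0.01, 1630 were higher and 2637 lower, and with at least 2-fold, 380 and 120. The 2-fold threshold left 857 higher and 396 lower genes for N352S minus siTDP-43. A block for the pairing of siRNA libraries gave 2589 higher and 4144 lower genes and moved no count of calls over all genes by more than 1.5 times. A fit of the 5 libraries alone gave 2147 and 3535, median-of-ratios scaling 3016 and 3531, and quantile normalization 2935 and 3670. The named genes were mostly picked by small adjusted p or large difference in these same libraries. How they held up therefore does not describe calls in general. Among 227 named genes, 204 kept their direction and side of the threshold in every alternative but the 2-fold threshold. STMN2, not called, turned to 0.04 with median-of-ratios scaling, 0.01 without mitochondrial genes and 0.15 with GC-bin centring, and ran from -0.07 to 0.08 as single libraries were left out (0.08 without siControl 3, 0.00 without wild type 79). MT-ATP8 turned from -0.22 to 0.01 with GC-bin centring and lost its call. The cause of these changes was not tested.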

Other observations

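Protein-coding genes on chromosome 2 below 54 Mb, a region chosen after its values were seen, stood higher than the rest of the chromosome in wild-type cells. Of its 207 tested genes, 62 were higher and 32 lower, with a median log2 difference of 0.09 (0.18 after GC centring), against 71 higher and 243 lower of 645 genes on the rest of chromosome 2 (median -0.16). Over 252 windows of 47 to 59 neighbouring genes along the genome, the GC-centred medians of the 4 windows in this region were 0.14 to 0.22. Those of all other windows ran from -0.17 to 0.12. Between N352S and siTDP-43 libraries the same windows had medians of 0.35 to 0.44. CALM2 and RPS7, among the largest gains in TPM, lie in this region. DNA copy number was not measured in these files.

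HOX genes of the tested set were 2 higher and 7 lower of 15 in wild-type cells, with 4 lower and 1 higher without wild-type library 80 and 0 higher without library 79. HOXD8 averaged 26.5 ± 1.85 TPM in siControl and 16.1 ± 0.23 TPM in wild-type libraries (log2 -0.68), and 0.60 on the log2 scale separated N352S from siTDP-43 cells in the opposite direction. Of 12 cadherin genes, 6 were higher and 4 lower, with 3 higher without wild-type library 80 and 2 lower without siControl 1, without siControl 2 or under median-of-ratios scaling. CDH20 was at 1.75, 2.43 and 2.44 TPM in siControl and 0.26 and 0.37 TPM in wild-type libraries. Of 21 interferon response genes, 5 were higher and 5 lower (23.8% each, against 14.9% and 24.8% of all tested genes). The lower count was 2 without wild-type library 79 and 3 without library 80, under GC centring or under median-of-ratios scaling. PSMB8, an immunoproteasome subunit, averaged 0.49 ± 0.04 and 2.04 ± 0.27 TPM and passed the expression threshold through the wild-type libraries.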
